A study of Mus musculus with 14 samples.

Results

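The degradome of Drosha-deficient mouse embryonic stem cells (ESCs) was compared with that of control ESCs at 3919 pile-up sites, positions where many sequenced reads share the same first base. These were all sites of the table deposited for the Drosha line, with no further selection. The comparison used 4 of the 14 samples of the series: 2 Drosha-deficient libraries and 2 control libraries. All 4 came from ESCs with the alleles Drosha fl/fl and Gt(ROSA)26Sor CreERT2: both copies of Drosha are floxed, and a tamoxifen-inducible Cre recombinase is expressed from the Rosa26 locus. The deficient cells were treated with 100 nM 4-hydroxytamoxifen (4-OHT) for 72 h and grown for a further 48 h without it, and the control cells were not treated, so the deletion and the treatment cannot be told apart. The ESCs were grown with LIF on mitomycin C-inactivated mouse embryonic fibroblasts, whose Drosha genotype the study's methods do not give. The files used here hold no value for Drosha in the separate libraries, so the deletion was not checked here. In the deposited RNA-seq table, which gives 1 mean level per gene for the line, all 22 pluripotency genes examined were present (median logCPM, a log2 level relative to library size, 6.97, from 3.35 for Dppa2 to 10.2 for Dppa5a), and the 20 fibroblast genes examined had a median of 5.30, from -1.94 for S100a4 to 11.2 for Fn1. No site was named for any of those 20 fibroblast genes, though only 775 of the 3919 sites carry a gene name. The labels do not say whether replicates were separate cultures, so p-values measure the spread between these libraries only.

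Drosha is the RNase III enzyme of the Microprocessor, in which it works with the double-stranded RNA-binding protein DGCR8. It cuts both strands at the base of a hairpin in a primary miRNA transcript. The hairpin goes on to Dicer, which removes the loop, and the rest of the transcript is left with a 5′ monophosphate directly after the 3′ arm of the hairpin. Degradome sequencing ligates an RNA linker to such 5′ monophosphates in polyA-tailed RNA, so a read is meant to start at the 5′ end of a cut or trimmed RNA. Other RNAs also carry this end, among them mitochondrial and ribosomal RNAs that are cut from longer precursors, snoRNAs trimmed from introns, and decay intermediates.

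The cut is shown for several hairpins in the genome sequence (GRCm38), with the bases that follow the cut in capitals, so that the first capital is the first base of the reads. The mature sequence (RefSeq, GRCm38) of the 3′ arm that ends there is given in the same order with its seed, bases 2 to 8, in capitals. The first set is the miR-290 cluster on chromosome 7, whose miRNAs are abundant in ESCs, with sites on the + strand at chr7:3218698 (Mir290a), chr7:3218990 (Mir291a), chr7:3220713 (Mir294) and chr7:3220838 (Mir295).

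Mir290a, chr7:3218676-3218709: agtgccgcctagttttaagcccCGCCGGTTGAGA

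mmu-miR-290a-3p: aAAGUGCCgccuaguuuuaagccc

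Mir291a, chr7:3218968-3219001: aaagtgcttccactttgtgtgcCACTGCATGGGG

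mmu-miR-291a-3p: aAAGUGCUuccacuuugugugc

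Mir294, chr7:3220691-3220724: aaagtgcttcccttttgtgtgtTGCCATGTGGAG

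mmu-miR-294-3p: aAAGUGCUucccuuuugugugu

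Mir295, chr7:3220816-3220849: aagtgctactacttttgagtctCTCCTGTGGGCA

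mmu-miR-295-3p: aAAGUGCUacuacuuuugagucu

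The second set holds hairpins of other loci, chosen for large decreases (Mir142, Mir124a-1, Mir16-1, Mir19b-1), for a known cluster (Mir92-1, Mirlet7a-1, Mir410) or as a site that was not called (Mir98). The hairpins of Mir16-1 and Mirlet7a-1 lie on the - strand. No mature arm was matched for Mir124a-1.

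Mir142, chr11:87756904-87756937: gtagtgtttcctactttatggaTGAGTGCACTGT

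mmu-miR-142a-3p: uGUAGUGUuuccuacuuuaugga

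Mir124a-1, chr14:64590709-64590742: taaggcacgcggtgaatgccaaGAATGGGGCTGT

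Mir16-1, chr14:61631881-61631914: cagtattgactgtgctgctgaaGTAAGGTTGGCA

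mmu-miR-16-1-3p: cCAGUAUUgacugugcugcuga

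Mir19b-1, chr14:115044359-115044392: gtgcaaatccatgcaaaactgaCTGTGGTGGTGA

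mmu-miR-19b-3p: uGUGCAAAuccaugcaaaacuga

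Mir92-1, chr14:115044476-115044509: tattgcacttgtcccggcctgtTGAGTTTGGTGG

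mmu-miR-92a-3p: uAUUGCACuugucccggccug

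Mirlet7a-1, chr13:48538177-48538210: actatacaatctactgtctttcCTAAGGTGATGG

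mmu-let-7a-1-3p: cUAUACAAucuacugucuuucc

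Mir410, chr12:109743763-109743796: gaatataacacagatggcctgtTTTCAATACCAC

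mmu-miR-410-3p: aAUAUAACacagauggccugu

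Mir98, chrX:151913286-151913319: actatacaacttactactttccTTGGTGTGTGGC

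mmu-miR-98-3p: cUAUACAAcuuacuacuuuccu

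Depth was similar in the 4 libraries, with 28682300 and 29228747 mapped reads in the controls and 31000283 and 28775214 in the deficient cells. Values were reads per 1000000 mapped reads (RPM), so that 1 read was worth 0.0323 to 0.0349 RPM, and a count of 0 allows up to 3 reads, or 0.0968 to 0.105 RPM (counting error only). The composition differed between the groups. Reads that mapped to several places made up 37.6% and 41.8% of mapped reads in the controls and 26.9% and 28.7% in the deficient cells. The RPM summed over the 3919 sites came to 12.6% and 12.4% of the mapped total in the controls and 8.93% and 8.69% in the deficient cells, but reads with several genomic places count at each, so these are not shares of reads. By the study's methods a pile-up site had to be called in both control replicates, but the table also holds sites that were at 0 in a control library (1 and 8 sites, against 36 and 51 in the deficient libraries), so that rule does not describe every site. The part of these differences in the results was not tested.

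A site or gene was called decreased or increased where limma's adjusted p was below 0.05 and the log2 fold change, of log2(RPM + 0.1) in deficient minus control, was beyond 1.5. By this rule 1473 of 3919 sites (37.6%) were decreased and 375 (9.57%) were increased. Both deficient libraries lay below both controls at 2346 sites (59.9%) and above both at 832 (21.2%). Over all sites the log2 fold change had a median of -0.93, which is the shift against which each group below is read. Of all calls, 20.3% were increases. This share was 40.9% after the libraries were centred on the median site, 55.1% with edgeR on recovered read counts and 56.2% with DESeq2. The balance of lower and higher sites thus depends on the scaling. Centring took away the median level of each library and not the median change, which was still -0.34 after it. With edgeR the median change was -0.03, and with DESeq2 it was -0.06.

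To see which RNAs carried the sites, each site was put in 1 kind by the annotation at its position or by the bases around it. The kinds were defined after the values had been seen, and their values are a description without a test. Of the 3919 sites, 95 lay at miRNA hairpins, 173 at snoRNAs, 3 in mitochondrial sequence, 529 began like a B1 repeat, 578 began like a B2 repeat, 231 lay on the first base of an annotated intron and 38 at an annotated transcript start. A further 1165 followed the 3 genomic bases TCT and had none of these features, and 1107 had no such feature. The kinds differed widely in their change (the plot of change by kind). The miRNA hairpins had a median log2 fold change of -1.97 (quartiles -2.39 to -1.26). Of them 65 (68.4%, against 37.6% of all sites) were decreased and 0 increased. With edgeR 30 of these were decreased and 1 increased, with DESeq2 25 and 1, with a pseudocount of 1 RPM 27 and 0, and after centring 40 and 0. At the 69 hairpin sites whose first 30 bases stood once in the genome, the median was -1.91 with 46 decreased. Over all 2498 sites with 1 copy it was -1.57 with 1296 decreased. The sites after TCT had a median of -2.14 (quartiles -2.62 to -1.71), with 975 (83.7%) decreased and 3 increased. Here edgeR gave 457 decreased, DESeq2 436, a pseudocount of 1 RPM 385 and centring 617, and 594 were decreased without control replicate 1. The B1-like starts went the other way, with a median of 1.24 (quartiles 0.45 to 1.91). Of them 1 was decreased and 211 (39.9%, against 9.57% of all sites) were increased, and edgeR called 375 increased.

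**Figure D1:**
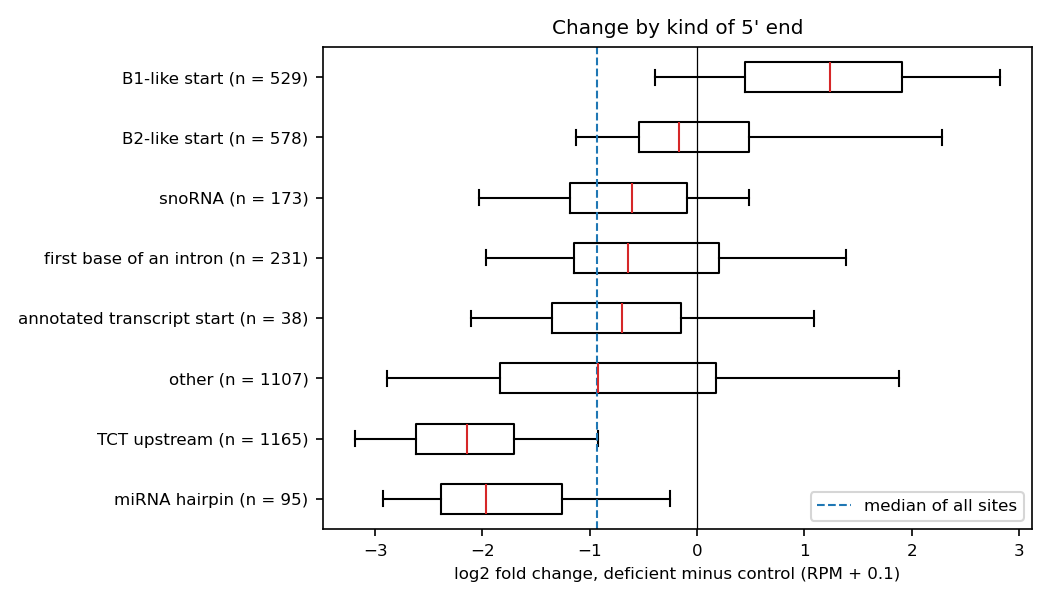
Log2 fold change of pile-up sites by kind of 5′ end. The x axis gives deficient minus control of log2(RPM + 0.1); boxes show the quartiles and the red line the median, whiskers reach from the lowest to the highest 5% of sites, and the dashed line is the median of all sites (-0.93). The miRNA hairpins (median -1.97) and the sites after TCT (-2.14) lie to the left of that line, and the B1-like starts (1.24) lie to the right of 0.

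The share of the summed RPM that a kind took also differed between the groups for several kinds. The miRNA hairpins held 2.13% and 2.04% of the RPM of the table in the controls, and 0.598% and 0.635% in the deficient cells. The sites after TCT held 9.56% and 7.70% in the controls and 3.04% and 2.55% in the deficient cells. The B1-like starts held 4.97% and 4.02% in the controls and 23.1% and 17.4% in the deficient cells, and the B2-like starts 4.30% and 3.09% against 8.35% and 5.88%. For each of these 4 kinds the shares of the control and deficient libraries did not overlap. The summed RPM of the B2-like starts did overlap, at 5404 and 3826 in the controls and 7456 and 5105 in the deficient cells. The sum over all sites, by which the shares are divided, was 125610 and 123709 RPM against 89284 and 86894 RPM. The 3 mitochondrial sites alone held 35.7% and 49.5% in the controls and 31.7% and 39.9% in the deficient cells, so these shares are relative to a few very deep positions. Reads with several genomic copies were counted at each copy, which enlarges the shares of the repeats.

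**Figure D2:**
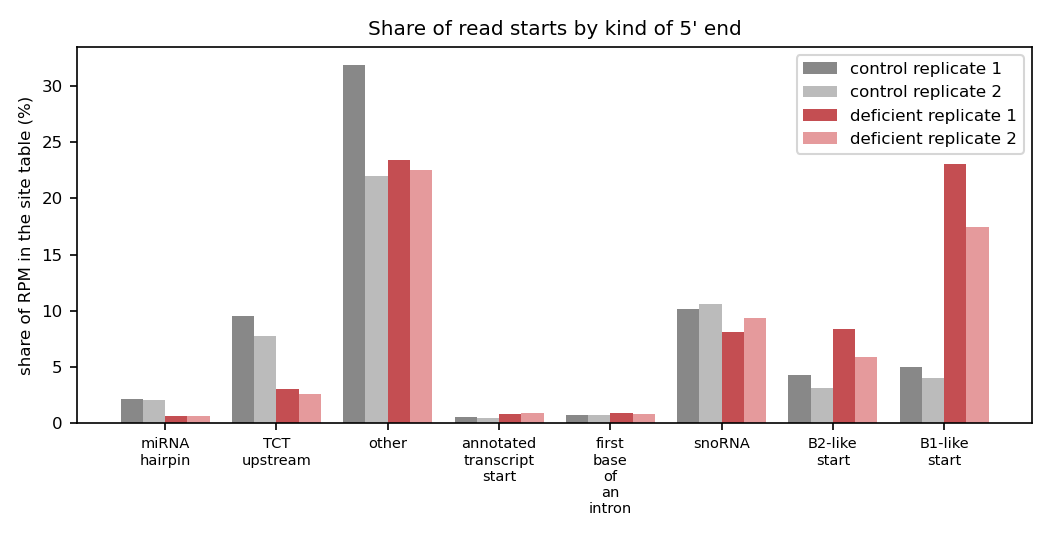
Share of the summed RPM of the site table taken by each kind of 5′ end, in percent, with 1 bar per library (grey: control, red: deficient). The B1-like starts stand at 4.97% and 4.02% in the controls and 23.1% and 17.4% in the deficient cells, and the miRNA hairpins at 2.13% and 2.04% against 0.598% and 0.635%; the 3 mitochondrial sites are not drawn.

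At the miRNA hairpins, the position of the read starts could be compared with the annotated arms. Of the 95 sites, 82 could be set against the end of a mature miRNA, mostly a 3′ arm. Of these, 50 began on the base that follows the last base of the arm and 6 on that last base itself. A base further on there were 10, and a base beyond that 8. The study's classifier had learned from the read starts next to annotated arm ends, so these positions are not independent of how sites were picked. These 74 sites at offsets 0 to 3 had a median log2 fold change of -1.96, with 54 (73.0%) decreased and both deficient libraries lower at 68. Over all sites 37.6% were decreased, and both deficient libraries were lower at 59.9%. The other 8 sites had a median of -0.86, with 3 (37.5%) decreased, near the share of all sites. They include Mir677, matched to a 5′ arm, and Mir451a and both Mir5121 sites, whose mature miRNAs carry no arm name. The remaining 13 had no matched mature miRNA, with a median of -2.20 and 8 (61.5%) decreased. They include sites in Snord43 and 1 base from the start of the snoRNA Gm25791. Both Mir5121 sites lie within 2 bases of the start of Snord33. None of these sites at snoRNAs was called.

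**Figure D3:**
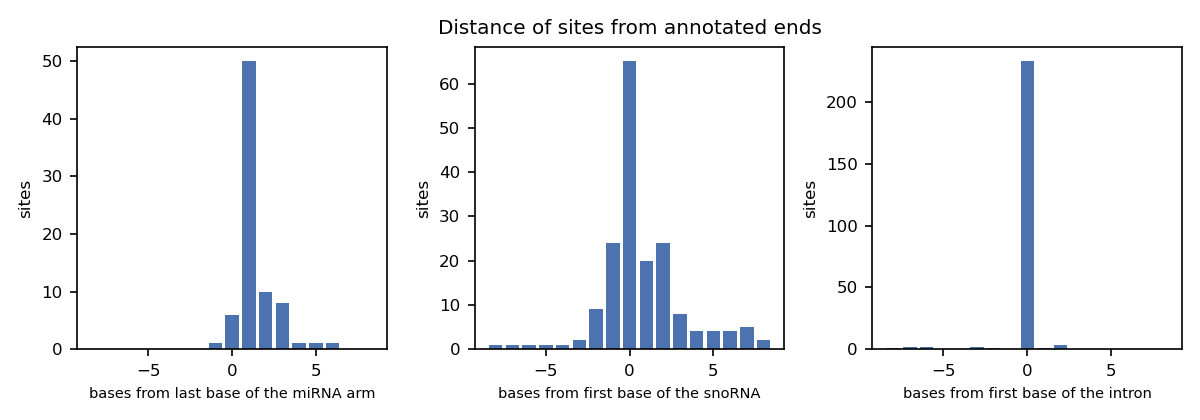
Number of sites by distance from an annotated end, in bases: from the last base of the miRNA 3′ arm (left), from the first base of the snoRNA (middle) and from the first base of the intron (right). The miRNA sites peak at 1 base past the arm with 50 sites, the snoRNA sites at 0 with 65, and the intron sites at 0 with 233.

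Summed by gene, 733 genes were named at 775 sites, 632 of them with 1 site. Of these genes 218 (29.7%) were decreased and 11 (1.5%) were increased, with a median log2 fold change of -0.99. Among gene calls 4.80% were increases, a share of 28.4% after centring, 64.6% with edgeR and 64.5% with DESeq2. Of the 84 genes with a Mir symbol, 55 were decreased, 0 were increased and 29 were not called, with a median of -2.01. All 6 genes of the miR-290 cluster in the table were decreased (median -2.51), as were 7 of 8 genes of the miR-17-92 cluster and its paralogues (-1.95), 4 of 7 let-7 genes and their partners (-1.98), 6 of 7 of the miR-23-27-24, miR-15-16 and miR-130-301 genes (-2.09) and 6 of 11 of the Dlk1-Dio3 locus (-1.74). These counts include host genes that share sites with their hairpins: Mcm7 has the site of Mir25 and Dleu2 that of Mir16-1, while Mir17hg sums Mir19b-1 and Mir92-1, and Aopep sums Mir24-1 and Mir27b. After centring the decreased genes of these 5 lists, in the same order, numbered 6, 3, 2, 2 and 1, with Mir410 the one left at the Dlk1-Dio3 locus. With edgeR and with DESeq2 they numbered 3, 1, 1, 2 and 0. Without control replicate 1 they numbered 6, 3, 1, 4 and 3, and without control replicate 2 they numbered 6, 4, 1, 4 and 3. The median of the miRNA hairpin sites was below 0 under every scaling and setting run, and came to -1.23 with edgeR.

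The hairpins of the miR-290 cluster were the deepest miRNA sites. Mir295 had 660 and 704 RPM in the controls and 131 and 154 RPM in the deficient cells, a log2 fold change of -2.26 (SE 0.24, adjusted p = 0.00054). Mir290a, the first hairpin of the cluster, had 618 and 422 RPM against 29.0 and 48.8 RPM, a change of -3.76 (SE 0.33, adjusted p = 0.00054) and the largest in the cluster. For both genes the deficient libraries lay far below the controls. Mir294 had 276 and 181 RPM against 45.9 and 36.3 RPM, a change of -2.45. Mir291b had 144 and 192 RPM against 25.03 and 30.8 RPM, and Mir292 had 120 and 79.3 RPM against 14.7 and 12.8 RPM. Mir291a had 137 and 127 RPM against 19.9 and 32.0 RPM. The groups did not overlap at any of the 6 genes, and the decreases were of 2.26 to 3.76 log2 units. The site of Mir295 also follows TCT in the genome, and those of the other 5 genes do not.

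Large decreases were also found outside the cluster. With all libraries and a pseudocount of 0.1 RPM, those of Mir142 and Mir33 exceeded that of Mir290a. This order depends on the pseudocount for Mir33 and on the deeper control library for Mir142. Mir142, whose miRNA is known from blood cells, had 18.3 and 69.6 RPM in the controls and 2.06 and 2.36 RPM in the deficient cells, a change of -3.95 (SE 0.54, adjusted p = 0.0012). Its controls differed by several fold from each other, and both lay above the deficient libraries. Mir33, which lies in an intron of Srebf2, had 1.19 and 2.98 RPM against 0 and 0.0695 RPM, at or under the floor. Mir124a-1, a hairpin of the neuronal miR-124, had 7.43 and 9.34 RPM against 0.742 and 0.660 RPM (-3.40, SE 0.35, adjusted p = 0.00054). Mir16-1 had 22.1 and 24.5 RPM against 2.52 and 3.06 RPM, a change of -3.02. Mir351 had 19.0 and 22.3 RPM against 2.55 and 2.75 RPM, and Mir32 had 38.3 and 50.7 RPM against 5.52 and 7.12 RPM. In each of these genes both deficient libraries were lower than both controls.

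Within clusters, the hairpins moved by different amounts. Mir19b-1 of the miR-17-92 cluster had 11.1 and 12.8 RPM in the controls and 1.39 and 1.63 RPM in the deficient cells, a change of -2.91 (SE 0.32), and its neighbour Mir92-1 had 26.3 and 28.4 RPM against 7.32 and 5.46 RPM, a change of -2.09 (SE 0.30). Whether these 2 changes differ was not tested. In the let-7 group, which marks differentiated cells, Mirlet7a-1 had 4.67 and 4.52 RPM against 0.548 and 0.938 RPM (-2.52, SE 0.40, adjusted p = 0.0023), a call lost without control replicate 1 (-2.49). Mirlet7f-1 had 4.32 and 3.39 RPM against 1.81 and 1.08 RPM (-1.39, adjusted p = 0.020), which did not reach the fold required. At the imprinted Dlk1-Dio3 locus, Mir410 had 33.6 and 25.1 RPM against 7.84 and 4.80 RPM (-2.22, SE 0.34), while Rian, a long non-coding RNA that hosts snoRNAs at that locus, had 82.4 and 75.5 RPM against 93.5 and 98.9 RPM (0.29, adjusted p = 0.34).

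Of the sites with a mature arm, several shared a seed. Their calls are counted beside 37.6% decreased over all sites and 68.4% over the miRNA hairpins, and no seed was tested against these. The seed AAGUGCU of miR-291a, miR-294 and miR-295 stood beside 5 sites with changes from -2.45 to -1.05, of which 4 were decreased. AUUGCAC, shared by miR-25 and miR-92a, stood beside 3 sites from -2.09 to -1.06, of which 2 were decreased. The 3 sites with UAUACAA, the 3′ arms of let-7a-1, let-7f-1 and miR-98, ranged from -2.52 to -0.10, with 1 decreased. The 3 hairpins of that last seed thus spanned a wide range, while the miRNA sites as a whole ran from -3.95 to 0.56. Whether the 3 differ from each other was not tested.

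Some hairpins did not pass the test in spite of depth like that of the others. Mir652 had 23.9 and 34.5 RPM in the controls and 19.3 and 20.6 RPM in the deficient cells (-0.52, adjusted p = 0.16). Mir138-1 had 16.1 and 44.6 RPM against 17.4 and 17.97 RPM, and Mir450-1 had 10.1 and 10.2 RPM against 10.7 and 8.51 RPM (-0.09, adjusted p = 0.82). The groups overlapped at Mir138-1 and Mir450-1 and were close together at Mir652. Centring moved all values up alike, which takes the changes at Mir652 and Mir450-1 above 0. Mir147 had 42.5 and 39.5 RPM against 18.03 and 14.7 RPM, and its change of -1.33 (adjusted p = 0.0056) stayed short of the fold required. Mir98 had 2.44 and 1.40 RPM against 1.42 and 2.09 RPM, and its change of -0.10 turned to 0.93 with edgeR and 0.49 after centring. Mir34b had 1.95 and 1.09 RPM against 2.87 and 1.70 RPM (0.56, adjusted p = 0.31). Both genes of the list of Drosha-independent miRNAs that had a site were not called: Mir5099 had 19.7 and 9.68 RPM against 9.90 and 7.54 RPM, and Mir677 had 1.67 and 1.16 RPM against 2.52 and 0.591 RPM. Mir451a, whose hairpin is known to need Drosha but not Dicer, had 1.71 and 1.98 RPM against 0.839 and 1.42 RPM (-0.70, adjusted p = 0.20).

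**Figure D4:**
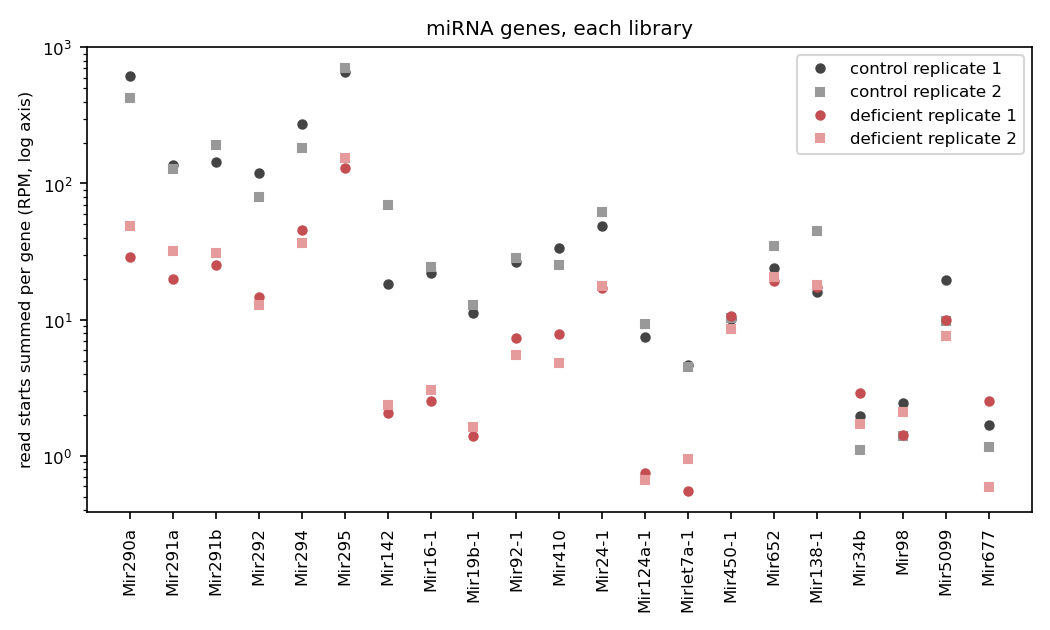
Read starts summed per miRNA gene in each library, in RPM on a log axis, for 21 genes. Circles and squares are replicates 1 and 2 of control (grey) and deficient (red) ESCs. From Mir290a to Mirlet7a-1 both deficient libraries lie below both controls, and at Mir450-1, Mir138-1, Mir34b, Mir98, Mir5099 and Mir677 the groups overlap.

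Sites in the miRNA pathway's own genes were few: 4 of 29 genes examined had a site, of which 2 were decreased, against 29.7% of all genes. Dgcr8, whose own mRNA holds hairpins known to be cut by the Microprocessor, had 3 sites that summed to 14.4 and 11.2 RPM against 2.35 and 3.82 RPM (-2.04). Of its sites 1 was decreased (-2.31), and the others, at -1.16 and -0.73, were not called. The gene was not called after centring (-1.45), with edgeR (-0.99), with DESeq2 or without control replicate 1 (-1.86). Tut4, a terminal uridylyltransferase, had 16.5 and 17.004 RPM against 6.58 and 5.66 RPM, a change of -1.44 (adjusted p = 0.0051) that stayed short of the fold required. Of the stem-loops in the copy of the study's list used here, which is shorter than the full list outside miRNAs, 64 of 68 at miRNAs had a site in the table (median -2.09) and 31 of 36 elsewhere (median -2.04). These lists were chosen on these libraries, so their direction is no independent evidence. Of the 31 sites outside miRNAs, 10 followed TCT, 4 lay at snoRNAs, 2 at transcript starts and 15 had none of the features above.

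The repeats B1 and B2 are short interspersed elements of the mouse genome, present in very many copies and transcribed by RNA polymerase III or as parts of longer transcripts. B1 derives from 7SL RNA and B2 from a tRNA. A site was called B1-like where the letters CTTTAATCC stood within the first 40 bases of the read on the read's strand, and B2-like where TGGCTCAG stood within the first 25. The B1 letters were found at 529 sites (13.5%) and in 0.0335% of 32851 RefSeq promoters in a window of that length, on the gene's strand. The B2 letters were found at 580 sites (14.8%), 2 of them of another kind, and in 0.0426% of promoters. On the reverse strand neither was found in the same windows. The B1 letters began at bases 22 to 26 of the read at 500 sites, and the B2 letters at bases 11 to 15 at 558, so most reads started at nearly the same base of the repeat. The 3 most widely shared B2-like starts are shown as 40 bases of GRCm38 from the first base of the read, with the letters searched in capitals.

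B2-like 1, at Gbf1, chr19:46227090-46227129, + strand: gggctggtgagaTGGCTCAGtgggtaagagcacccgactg

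B2-like 2, at Nop58, chr1:59715396-59715435, - strand: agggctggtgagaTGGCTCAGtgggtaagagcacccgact

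B2-like 3, at Chst5, chr8:111898416-111898455, + strand: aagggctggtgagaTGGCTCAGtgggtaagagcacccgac

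The B1-like starts rose at 211 of 529 sites (39.9% against 9.57% of all sites), and both deficient libraries lay above both controls at 395. The most widely shared B1-like start, at Snx3, had 390 and 285 RPM in the controls and 1563 and 1094 RPM in the deficient cells (1.97, SE 0.35, adjusted p = 0.00020). Its first 30 bases stand at 213 places of the genome, and 21 sites of the table share them, with changes from 0.35 to 2.46. Another start, at Dmc1, had 38.0 and 30.2 RPM against 97.9 and 76.9 RPM (1.35, not called). A start outside named genes had 73.6 and 54.1 RPM against 245 and 201 RPM (1.81, increased). At all 3 the deficient libraries lay well above the controls. The deepest B1-like site, at 2 places of the genome and in no named gene, had 764 and 817 RPM against 1217 and 1184 RPM and was not called (0.60, adjusted p = 0.13).

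The change was also taken by number of copies. At the 117 B1-like sites whose first 30 bases were found once in the genome, the median change was 1.39 with 50 increased (42.7%, against 4.56% of all sites with 1 copy), and at the 412 others it was 1.24 with 161 increased. With 1 site per sequence, 160 of 411 were increased (median 1.24). The single-copy start at 0610010F05Rik had 19.2 and 16.05 RPM in the controls and 149 and 120 RPM in the deficient cells (2.92, SE 0.32, adjusted p = 9.53e-06), and that at Spop had 12.8 and 12.7 RPM against 92.1 and 75.7 RPM (2.70). The 1 decreased B1-like site, at Ube2c, had 9.41 and 6.30 RPM against 3.45 and 2.02 RPM (-1.51). That call was lost after centring (-0.91), with edgeR (-0.59), with DESeq2 (-0.61) and with a pseudocount of 1 RPM (-1.25). It was also lost without control replicate 1 (-1.22) and without deficient replicate 2 (-1.14). B1-like starts in introns on the gene's strand (125 sites, median 1.13), antisense to introns or other exons (133 sites, 1.34) and between genes (249 sites, 1.30) had like medians, while the 11 in exons of protein-coding transcripts had a median of -0.26, with 1 decreased and 0 increased. The median of all B1-like sites was above 0 under every scaling and setting run, from 1.00 with uniquely mapped reads as library sizes to 2.19 with edgeR.

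The B2-like starts had a median of -0.17 (quartiles -0.54 to 0.48), with 63 increased (10.9%, against 9.57% of all sites), 4 decreased (0.692%, against 37.6%) and 511 not called, and this median turned to 0.42 after centring, 0.77 with edgeR and 0.74 with DESeq2. The increased sites numbered 98 after centring, 136 with edgeR and 135 with DESeq2, and 35 without control replicate 2 and 40 without deficient replicate 1, where 22 were decreased. The same first 30 bases went with different changes at different places. The 60 sites that share those of the first B2-like sequence shown ranged from -1.40 to 2.37 around a median of -0.03. At Gbf1 that start had 229 and 162 RPM in the controls and 158 and 118 RPM in the deficient cells (-0.50, adjusted p = 0.20). The value at Gbf1 turned to 0.094 after centring, 0.43 with edgeR and 0.41 with DESeq2. At Chst5, where the read starts 2 bases further upstream in the repeat, there were 57.0 and 43.7 RPM against 384 and 192 RPM (2.44, SE 0.36, adjusted p = 4.3e-05). At Nop58 there were 29.7 and 16.01 RPM against 113 and 35.2 RPM (1.53). That call was lost without control replicate 1 (1.97), control replicate 2 (1.09) or deficient replicate 1 (0.69), and with a pseudocount of 1 RPM (1.49). The largest decrease among deep B2-like sites was at Pemt, with 41.9 and 29.7 RPM against 7.58 and 9.38 RPM (-2.05, adjusted p = 0.00011). That call was lost after centring (-1.46), with edgeR (-1.11) and with DESeq2 (-1.14). With 1 genomic copy, 7 of 62 B2-like sites (11.3%) were increased, against 4.56% of all sites with 1 copy.

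Over all sites, the change differed with the number of copies. The median was -1.57 at 2498 sites with 1 copy of their first 30 bases, -0.83 at 506 with 2 to 5 copies, 0.34 at 429 with 6 to 100 and 0.32 at 484 with over 100. The kinds of site differed with it too: 41.6% of the sites with 1 copy followed TCT, against 3.72% of those with over 100. Within the B1-like starts the median was 1.39 with 1 copy and 1.24 with more. Within the B2-like starts it was -0.14 and -0.17. The share of multi-mapped reads was lower in the deficient libraries, as given above. The part of the kinds or of multi-mapped reads in these values was not tested.

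Sites at the first base of an annotated intron, where the 5′ end lies exactly at the 5′ splice site, numbered 233, of which 2 were put in another kind. Of the 231 others, 230 (99.6%) began with GT, the usual first bases of an intron, against 11.2% of all sites and 5.16% of promoters at the same place. Several are shown with 12 bases of exon in lower case, then the first 6 intron bases in capitals, with the reads starting at the first capital; Alkbh1 and Polr2a lie on the - strand.

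Snhg1, chr19:8724178-8724207: tctcttttcagaGTAAGTagtgttaatggt

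Alkbh1, chr12:87443624-87443653: ggcgtgccccagGTAGGAaaggaggagtag

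Polr2a, chr11:69747963-69747992: aaacatgtgcagGTAAGTgctggggttaga

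Of these 231 sites, 29 (12.6%) were decreased and 9 (3.90%) increased, against 37.6% and 9.57% of all sites, with a median of -0.65. With edgeR 3 were decreased and 34 increased (median 0.25), and with DESeq2 3 and 33 (0.22). After centring 8 were decreased and 20 increased, with a pseudocount of 1 RPM 6 and 6, and 14 were decreased without control replicate 1 and 18 without control replicate 2. The deepest, in the snoRNA host Snhg1, had 70.3 and 54.4 RPM in the controls and 101 and 81.5 RPM in the deficient cells (0.55, adjusted p = 0.15). Polr2a, the largest subunit of RNA polymerase II, had 36.6 and 34.8 RPM against 12.3 and 11.8 RPM (-1.56, SE 0.32, adjusted p = 0.00068), with the groups far apart, but it was not called after centring (-0.96), with edgeR (-0.63) or with DESeq2 (-0.66). At Chd8, a chromatin remodeller, 1 intron start was higher, with 2.75 and 3.76 RPM against 12.6 and 10.4 RPM (1.80), and another was decreased (-2.04). The call of the decrease was lost after centring (-1.44), with edgeR (-1.17), with DESeq2 (-1.21) and with a pseudocount of 1 RPM (-1.33). It was also lost without control replicate 2 (-1.68) and without deficient replicate 1 (-1.49). The splicing factor Srrm2 had 1.499 and 1.64 RPM against 7.35 and 6.57 RPM (2.08). Decreases were found at Rere, with 3.03 and 2.43 RPM against 0.161 and 0.313 RPM (-3.10), and at the Polycomb gene Phc1, with 1.08 and 1.30 RPM against 0.0323 and 0.174 RPM (-2.76).

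Small nucleolar RNAs (snoRNAs) guide the modification of ribosomal RNA and are mostly trimmed out of introns. Of the 173 snoRNA sites, 65 fell exactly on the annotated first base and 148 within 3 bases of it. The letters TGATGA, the C box of the box C/D class, stood in the first 20 bases at 87 of the 173 (50.3%), against 3.24% of all sites and 0.365% of promoters in a window of that length. The starts of Snord82 (- strand) and Snord49a (+ strand), the deepest sites of this kind, are shown from the first base of the reads with these letters in capitals.

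Snord82, chr1:86356299-86356328: cacaagTGATGAgtgacaaagggacttaat

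Snord49a, chr11:62603450-62603479: tgctgTGATGAgatgactaagtaggaagtg

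The snoRNA sites had a median change of -0.61 with 18 decreased (10.4%, against 37.6% of all sites) and 0 increased (against 9.57%). With edgeR and with DESeq2 4 were decreased and 6 increased, and the median turned to 0.29 and 0.26. After centring 8 were decreased and 3 increased, with a pseudocount of 1 RPM 9 and 0, and without control replicate 1, 10 and 2. Snord82 had 4689 and 5978 RPM in the controls and 2270 and 3193 RPM in the deficient cells (-0.98, SE 0.39, adjusted p = 0.038), short of the fold required, and was at 0.06 with edgeR. Snord49a had 1091 and 1214 RPM against 324 and 557 RPM (-1.44, adjusted p = 0.0025). The start of the snoRNA Gm23187 in Nop56, which encodes a core protein of box C/D particles, had 819 and 548 RPM against 919 and 658 RPM (0.22, adjusted p = 0.62), with the groups overlapping. The largest decreases with depth were at Bud23, with 218 and 248 RPM against 37.5 and 33.6 RPM (-2.71, SE 0.32, adjusted p = 1.1e-05), and at Gm24727, with 108 and 77.3 RPM against 14.8 and 13.7 RPM (-2.67). Of 47 genes with a snoRNA or scaRNA symbol, 4 were decreased (8.51%; median -0.59), and of 12 snoRNA host genes (Snhg genes and Gas5) 3 were (25%), against 29.7% of all genes. Gas5, the host with most sites (12), had 514 and 413 RPM against 354 and 400 RPM (-0.29, adjusted p = 0.33), and turned to 0.75 with edgeR.

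The deepest sites of the table lay in mitochondrial and ribosomal sequence. They are shown as 30 bases from the first base of the reads. The table places the first 2 in nuclear copies of mitochondrial DNA on chromosome 1 (- strand), and their first bases match the start codons of mt-Atp8 and mt-Nd4l, subunits of ATP synthase and of complex I, at positions 7766 and 9877 of the mitochondrial genome. The third begins 1 base before the annotated start of 18S ribosomal RNA (Rn18s-rs5, + strand).

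mt-Atp8, chr1:24614783-24614812: atgccacaactagatacatcaacatgattt

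mt-Nd4l, chr1:24612671-24612700: atgccatctaccttcttcaacctcaccata

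Rn18s-rs5, chr17:39846353-39846382: tacctggttgatcctgccagtagcatatgc

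The start of mt-Atp8 had 31840 and 43533 RPM in the controls and 16591 and 23120 RPM in the deficient cells (-0.93, SE 0.47, adjusted p = 0.093), and that of mt-Nd4l had 13054 and 17653 RPM against 11679 and 11566 RPM (-0.39, adjusted p = 0.45). Both deficient libraries were lower at each, and neither site was called. The value at mt-Nd4l, which the table names Gm10222, turned to 0.62 with edgeR, 0.61 with DESeq2 and 0.21 after centring. The start of 18S rRNA had 15932 and 9169 RPM against 3918 and 4023 RPM (-1.61, SE 0.42, adjusted p = 0.0033) and was decreased. That call was lost after centring (-1.01), with edgeR (-0.68) and DESeq2 (-0.72), without control replicate 1 (-1.21) and without deficient replicate 1 (-1.59). A site in the precursor, at -3357 bases from that start, had 5331 and 2879 RPM against 2491 and 2385 RPM (-0.68, adjusted p = 0.15). Inside 18S rRNA the sites were much weaker. At 134 bases from its start there were 32.3 and 21.8 RPM against 22.03 and 20.6 RPM (-0.32, adjusted p = 0.43), and a site at 207 bases had 3.49 and 1.78 RPM against 6.16 and 4.55 RPM (1.06, adjusted p = 0.036), short of the fold required.

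Annotated transcript starts, which normally carry a cap, held 38 sites with a median of -0.70. Of these 7 (18.4%) were decreased and 1 (2.63%) increased, against 37.6% and 9.57% of all sites, and the median turned to 0.17 with edgeR. There 1 was decreased and 6 were increased, against 0 and 4 with DESeq2, 3 and 3 after centring and 1 and 1 with a pseudocount of 1 RPM. The increased site was at Gm11408, with 41.0 and 36.9 RPM in the controls and 175 and 135 RPM in the deficient cells (1.98, SE 0.32, adjusted p = 8.9e-05). The 7SL RNA gene Rn7s1 had 231 and 129 RPM against 177 and 310 RPM (0.44, adjusted p = 0.32), and its groups overlapped. Decreased were the splicing factor Srsf7, with 7.46 and 7.32 RPM against 1.23 and 2.19 RPM (-2.10), and lactate dehydrogenase Ldha, with 7.18 and 3.49 RPM against 1.45 and 1.15 RPM (-1.88), the last a call lost after centring and without control replicate 1 (-1.37).

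The sites after TCT were the largest kind by number. TCT, written as DNA, is also how the RNA linker ends. Counting all kinds, 1208 sites (30.8%) followed TCT, against 2.05% of promoters with these letters at the same place, and 981 of them were decreased (median -2.12). The counts of decreased sites in this paragraph stand beside 37.6% decreased over all sites. ATCT preceded 750 sites (median -2.10), GATCT 420 (-2.15), CGATCT 177 (-2.07) and CCGATCT 86 (-1.81). Of the 1165 sites put in this kind, 1032 (88.6%) lay opposite a protein-coding exon, on the antisense strand, and 891 of these were decreased. Among the 1107 sites with none of the features, 305 lay opposite such exons (median -2.03, 231 decreased) and 302 were in exons of protein-coding transcripts on the transcript's strand (median -0.95, 89 decreased). The part of linker-like sequence in these decreases was not tested. Of the 2711 sites that did not follow TCT, 492 were decreased and 362 increased (median -0.31).

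The 3 sites after TCT shown here are among the deepest, with the letters in capitals and the reads starting directly after them. Each is antisense to the gene named.

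Sf3a3, chr4:124728141-124728170, - strand: cgctctcgctgaTCTgctcctcctcctcct

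Eif3a, chr19:60762199-60762228, + strand: tctctttctcgaTCTcttgaaagagctggg

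Supt16, chr14:52182228-52182257, + strand: tgaacactccgaTCTtcttgccgctcttgc

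Sf3a3, a subunit of the U2 snRNP, had 438 and 361 RPM in the controls and 45.8 and 71.6 RPM in the deficient cells (-2.79, SE 0.34, adjusted p = 1.3e-05). Eif3a, a translation initiation factor, had 324 and 244 RPM against 48.3 and 45.1 RPM (-2.59), and the histone chaperone gene Supt16 had 271 and 145 RPM against 49.7 and 40.04 RPM (-2.15). An antisense site that does not follow TCT, at the proteasome gene Psmc3, was deeper still, with 1322 and 1183 RPM against 167 and 160 RPM (-2.93, SE 0.33, adjusted p = 1.0e-05). At all 4 the groups lay far apart. The 3 increased sites after TCT were at Gm16580, with 11.4 and 11.2 RPM against 69.8 and 52.0 RPM (2.40), at Gm17135, with 5.47 and 3.93 RPM against 17.7 and 12.5 RPM (1.66, not called without control replicate 2, at 1.43, or deficient replicate 1, at 1.41), and at Slc38a1, with 0 in both controls and 1.10 and 0.764 RPM in the deficient cells.

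Beyond the miRNA genes, the largest decreases of genes were found at low RPM. Krt42, a keratin gene, had 5.51 and 4.41 RPM in the controls and 0.419 and 0.243 RPM in the deficient cells (-3.57, SE 0.44, adjusted p = 0.00079). Gm16163 had 3.77 and 4.45 RPM against 0.323 and 0.209 RPM (-3.54), and Kdm4b, a histone demethylase, had 2.02 and 1.95 RPM against 0.355 and 0 RPM (-3.29, adjusted p = 0.0096). The call at Kdm4b was lost without either control replicate, at -3.27 and -3.31. Tmem136 had 2.44 and 3.73 RPM against 0.226 and 0.243 RPM (-3.22), and 2610318N02Rik had 4.57 and 2.63 RPM against 0.387 and 0.209 RPM (-3.20). Deeper genes with a decrease included Top2a, the topoisomerase of dividing cells, with 168 and 120 RPM against 37.7 and 17.8 RPM (-2.45, SE 0.38, adjusted p = 0.0020), a call that was lost without control replicate 1 (-2.20, adjusted p = 0.052). Lrrc59 had 18.4 and 11.3 RPM against 2.32 and 2.64 RPM (-2.49), and Canx, an endoplasmic reticulum chaperone, had 99.6 and 67.7 RPM against 29.0 and 27.7 RPM (-1.53). The call at Canx was lost after centring (-0.94), with edgeR (-0.50), without control replicate 1 (-1.25) and, by little, without deficient replicate 2 (-1.496).

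The 11 increased genes included 3 with repeat-like starts. Gm45297, with a B1-like start, had 20.3 and 21.999 RPM in the controls and 163 and 116 RPM in the deficient cells (2.70, SE 0.28, adjusted p = 0.00054). Gm42798 also had a B1-like start (1.62, a call lost without either control replicate or without deficient replicate 1), and Gm47138 a B2-like one, with 9.69 and 3.66 RPM against 48.1 and 19.9 RPM (2.36), a call that was lost without control replicate 2 (1.67). Without such a start, 1700108F19Rik had 2.68 and 2.05 RPM against 27.3 and 16.9 RPM (3.14, SE 0.35, adjusted p = 0.00055), the largest increase of any gene in the table. Safb2, a nuclear matrix-binding protein, had 47.9 and 40.9 RPM against 129 and 126 RPM (1.52, SE 0.25), and without control replicate 2 the change was 1.41 and no longer called. Eprs, a tRNA synthetase, had 28.9 and 39.0 RPM against 437 and 76.9 RPM (2.44, SE 0.65, adjusted p = 0.015). Its value rested on deficient replicate 1, without which the change was 1.19 and not called, and the call was also lost without either control replicate (2.23 and 2.66).

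The other lists had few members with a site. The 3 glycolysis genes with a site, of 12 examined, were decreased, as were 29.7% of all genes: Ldha (-1.88), Hk2 (-1.83) and Pfkp (-2.01), with 0.258 to 1.45 RPM in the deficient cells. After centring they were at -1.28, -1.24 and -1.42, and none of the 3 was called there, with edgeR or DESeq2, or without control replicate 1, while 1 was called without control replicate 2. Of 22 pluripotency genes 4 had a site and none was called. Fgf4, a growth factor made by ESCs, had 103 and 89.7 RPM in the controls and 41.0 and 42.7 RPM in the deficient cells (-1.20, adjusted p = 0.0063), short of the fold required. Esrrb had 57.6 and 58.5 RPM against 41.1 and 33.7 RPM (-0.64), and turned to 0.39 with edgeR. Of 23 ribosomal protein genes 4 (17.4%) were decreased (median -0.46), against 29.7% of all genes. Rpl8 had 85.9 and 105 RPM against 150 and 170 RPM (0.74, adjusted p = 0.036), short of the fold required. No gene of the lists of G1/S regulators (17), of RNA decay factors (13) or of histones was named at a site. Of the 3 genes listed as cut by AGO2, 1 had a site: Plekhm1, with 2.65 and 2.29 RPM against 0.194 and 0.417 RPM (-2.72, adjusted p = 0.0041), a call lost without control replicate 1 (-2.62).

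The change was then set beside that in Dicer-deficient ESCs, which keep Drosha. That line carried Dicer fl/fl alleles, and deficient cells had received a retrovirus with GFP-Cre and controls one with GFP alone, with cells sorted for GFP on day 3 and taken 2 days later. The line, the way of deletion and the timing therefore differ from the Drosha experiment. The tables share 2595 sites, where the median change was -0.64 in the Drosha line and -0.03 in the Dicer line. The difference between the effects was below 0 at 1573 of them (60.6%) and had a median of -0.46. A test of this difference called 44 sites (1.70%) lower and 80 (3.08%) higher in the Drosha line. With libraries of the same replicate number paired, many more sites were called and most of them were lower, as given in the last section. The calls by kind below are without that pairing.

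At the 72 shared miRNA hairpins, the median was -1.97 in the Drosha line and -0.10 in the Dicer line, the difference was below 0 at 67 (93.1%, against 60.6% of all shared sites), and 18 (25%, against 1.70%) were called lower with 0 higher. Mir124a-1 changed by -3.40 in the Drosha line and 0.25 in the Dicer line, a difference of -3.64 (SE 0.48, adjusted p = 0.022). Mir290a changed by -3.76 and -0.25, a difference of -3.50 (SE 0.53, adjusted p = 0.023), and Mir410 by -2.22 and 1.41, a difference of -3.63 (adjusted p = 0.022). In the Dicer line the 3 hairpins had thus moved little or to higher values. At Mir92-1 the changes were -2.09 and -0.94 and the difference of -1.16 did not pass the test (adjusted p = 0.10).

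At the 662 shared sites after TCT, the median was -2.21 in the Drosha line and 0.08 in the Dicer line, and the difference was below 0 at 652 (98.5%, against 60.6% of all shared sites). Without pairing by replicate number, the test called 16 of them lower, which at 2.42% lies near the 1.70% over all shared sites. The difference itself had a median of -2.31 at these sites, against -0.46 over all shared sites. At the 406 shared B1-like starts the medians were 1.32 and 0.28, the difference was above 0 at 332 (81.8%, against 39.4%), and 52 (12.8%, against 3.08%) were called higher. The B1-like start at 0610010F05Rik changed by 2.92 and -0.22, a difference of 3.14 (SE 0.41, adjusted p = 0.022), and that at Sesn1 by 3.06 and 0.35, a difference of 2.71 (adjusted p = 0.044). The B2-like starts had medians of -0.12 and -0.29 with 6 called higher. The snoRNA sites had medians of -0.60 and -0.42 with 1 called higher, and the intron starts -0.50 and -0.01 with 4 called lower and 1 higher.

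**Figure D5:**
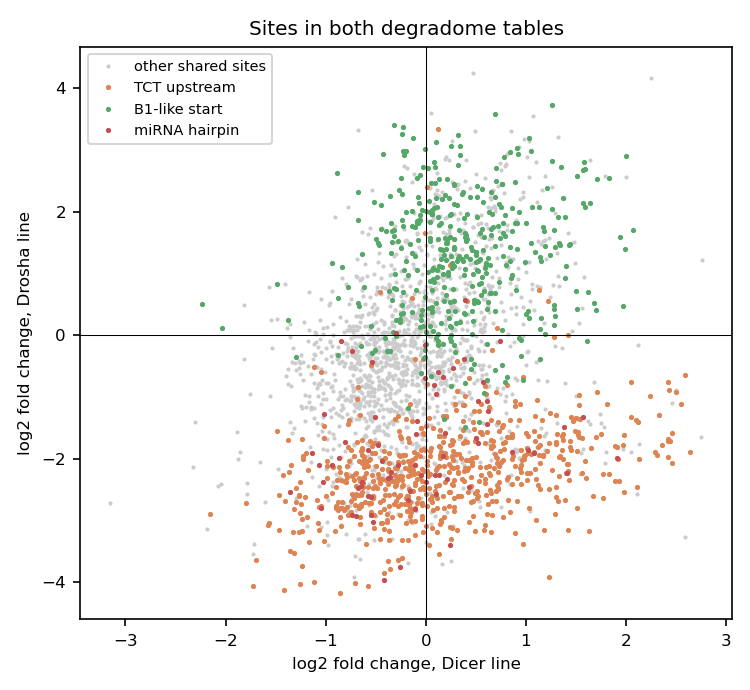
Log2 fold change at each of the 2595 sites shared by the tables, in the Dicer line (x axis) and the Drosha line (y axis), both as deficient minus control of log2(RPM + 0.1). The miRNA hairpins (red) and the sites after TCT (orange) lie low on the y axis and around 0 on the x axis (medians -1.97 and -0.10, -2.21 and 0.08), and the B1-like starts (green) lie high on the y axis (1.32 and 0.28).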

How the data were processed

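Degradome-seq was performed on polyA RNA from 75 µg of total RNA per sample on a NextSeq 500. Per the labels and the study's methods, the authors trimmed reads with Trimmomatic (version 0.38.0), aligned them to GRCm38 (mm10) with STAR, counted read starts at each position, picked pile-up sites by a classifier that had learned from known miRNA cuts, and tested them with edgeR (version 3.26.1). The deposited values were RPM, with multi-mapped reads counted at each place. The authors' log fold changes, p-values and FDR were not used. Deposited RNA-seq levels were on a log2 scale (logCPM), as the authors' mean. Mapped reads per library came from the study's mapping statistics.

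Sites and gene sums were tested on log2(RPM + 0.1) with limma (version 3.58.1, trend; R version 4.3.3), with Benjamini-Hochberg adjustment over 3919 sites or 733 genes, called at 0.05 and a log2 fold change of 1.5. The difference from the Dicer line was tested as an interaction over both tables. In every library 100% of values were whole reads within 0.05 of a read. On these recovered reads edgeR (version 4.0.16) called 636 sites decreased and 780 increased, and DESeq2 was version 1.42.0. In simulated data of the Drosha comparison over 3919 sites, 85 of 100 sites changed 4-fold and 100 of 100 changed 8-fold were recovered, with 0 of 3719 unchanged sites called. Over 733 genes, 85 and 99 of 100 were recovered, with 0 of 533 unchanged called. The simulated counts were drawn independently for each site or gene around 1 mean. They held no difference in composition between the groups and no reads counted at several places. The simulation therefore does not give the rate of false calls in the real libraries.

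The members, the gene lists and the kinds of 5′ end were chosen with earlier results of these data known. Genes were named by list (the deepest 4, and all members of the miRNA lists), by size of change (the 10 largest decreases and 10 increases with at least 1 RPM in the higher group and no overlap) by depth (10 deepest sites) and as hosts of the study's stem-loops outside miRNAs (up to 10); others were chosen after their values were seen. Sites were classed with GENCODE vM21, and sequences came from GRCm38 and RefSeq. The alternatives were other pseudocounts, filters, library sizes, centring, tools, thresholds, leaving out each library, and 3 chosen after the data were seen (sites not after TCT, 1 genomic copy, 1 site per sequence). A few named genes and sequences are not reported here.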

Additional observations from a re-analysis of the deposited data

Results flagged for a closer look

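The effects of the loss of Drosha and of Dicer differed, by a test of the difference itself (limma, adjusted p below 0.05), at 44 shared sites that were lower in the Drosha line and 80 that were higher. These counts depend on the replicate block given below, with which many more sites were called and most of them were lower. Each value below is the log2 fold change in the Drosha line minus that in the Dicer line. The largest differences at miRNA hairpins were -3.89 at Mir496a, -3.64 at Mir124a-1, -3.63 at Mir410, -3.54 at Mir142 and -3.50 at Mir290a. At Mir496a this joins a lower value in the Drosha line (-1.98) with a higher one in the Dicer line (1.91), and at Mir410 -2.22 with 1.41. At Mir124a-1 (-3.40 and 0.25), Mir142 (-3.95 and -0.41) and Mir290a (-3.76 and -0.25) nearly all of it lay in the Drosha line. In the rest of the miR-290 cluster the difference was -2.88 at Mir294, -2.71 at Mir292, -2.67 at Mir291b, -2.38 at Mir291a and -2.22 at Mir295. At the Dlk1-Dio3 locus it was -3.0 at Mir370 and -2.87 at Mir485, where the Dicer line was at 1.08 and 1.38. It was -2.50 at Mir16-1, -2.36 at Mir19b-1, -2.36 at Mirlet7a-1 and -2.16 at Mir24-1. Of the called sites 18 lay at miRNA hairpins, all of them lower. Elsewhere the lowest differences were -5.13 at Rpl36a, -4.53 at Obsl1 and -4.14 at Snx18, all after TCT, with 1.23, 2.64 and 2.14 in the Dicer line itself. The highest were 3.998 at AC150274.2, 3.77 at Sptan1 and 3.72 at Adgrg4. Among genes named by rule it was -2.87 at Krt42, 1.53 at the snoRNA Gm24339 and 2.88 at 1700108F19Rik. The lines also differ in origin, in the way of deletion and in timing, which cannot be told apart from the deleted gene.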

How the results depend on the processing

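The groups hold 2 libraries each, so 1 library weighs heavily, and sites under about 0.1 RPM are at the limit of counting. The 1473 decreased sites came to 548 with a pseudocount of 1 RPM, 871 after centring, 636 with edgeR, 597 with DESeq2, 492 without the sites after TCT and 907 to 1519 on leaving out 1 library. The 375 increased sites came to 602 after centring, 780 with edgeR, 766 with DESeq2, 114 at sites with 1 genomic copy and 264 to 463 on leaving out 1 library. The 218 decreased genes came to 87 with a pseudocount of 1 RPM, 83 after centring, 35 with edgeR, 38 with DESeq2 and 60 (without control replicate 1) to 207 on leaving out 1 library, with 124 without control replicate 2. The 11 increased genes came to 7 with uniquely mapped reads as library sizes, 33 after centring, 64 with edgeR, 69 with DESeq2, 29 at a log2 fold change of 1, 7 with 1 genomic copy and 7 to 23 on leaving out 1 library. The cause was not tested beyond the fewer sites or libraries of some settings. The labels do not say what a shared replicate number marks, and same-numbered libraries deviated together only weakly (correlation 0.13 over 3919 sites). With the replicate block, 1475 sites were decreased and 375 increased, 223 genes were decreased and 11 increased, and the difference from the Dicer line went from 124 to 1320 sites (934 lower, 386 higher). With a pseudocount of 1 RPM it came to 100.

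Of the 63 named genes that were called, none changed direction. Their calls were lost at 36 each with edgeR and DESeq2, 23 after centring, 19 with a pseudocount of 1 RPM, 26 without control replicate 1, 20 without control replicate 2, 4 without deficient replicate 1 and 7 without deficient replicate 2. Genes that were not called changed sign as follows, with DESeq2, edgeR and, where given, centring: Eif4a2 0.80, 0.81 and 0.38; Eif5 0.39 and 0.40; Esrrb 0.38 and 0.39; Gas5 0.75, 0.75 and 0.30; Gm10222 0.61, 0.62 and 0.21; Gnl3 0.0098 and 0.017; Mir5099 0.31 and 0.32; Mir677 1.14, 1.16 and 0.44; Mir98 0.93, 0.93 and 0.49; Mirlet7d 0.039 and 0.051; Nanog 0.13 and 0.14; Ncl 0.64, 0.66 and 0.25; Snhg1 0.78, 0.79 and 0.35; Snhg16 0.28 and 0.29; Snord55 0.17 and 0.17; Snord69 0.040 and 0.048; Snord73a 0.46, 0.46 and 0.083; Snord82 0.059 and 0.063; Tbx3 0.32, 0.34 and 0.071. With the deepest site alone Eif4a2 was at 0.060 and Snhg1 at 0.55. With uniquely mapped reads as library sizes Gm23187 was at -0.050, Gm24339 at -0.083, Rpl12 at -0.26 and Rpl5 at -0.042. On leaving out 1 library Eif4a2 ranged from -0.54 to 0.11, Mir677 from -1.12 to 0.81, Mir98 from -0.48 to 0.28, Ncl from -1.06 to 0.39, Gm23187 from -0.078 to 0.50, Rpl12 from -0.30 to 0.30, Rpl5 from -0.22 to 0.65 and Tbx3 from -1.07 to 0.020.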
